A study of Mus musculus with 4 samples.

Results

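The axon guidance genes are the semaphorins with their plexin and neuropilin receptors, the slits with Robo receptors, the ephrins with Eph receptors, and the netrins with Dcc and Unc5 receptors. They were chosen by gene symbol alone, as every row of these families (Sema3 to Sema7, plexins A to D, Nrp1 and Nrp2, Slit1 to Slit3, Robo1 to Robo4, EphA and EphB, ephrin-A and ephrin-B, Ntn1 to Ntn4, Unc5a to Unc5d and Dcc) that was present in all 4 count tables. This gave 68 genes, 34 ligands and 34 receptors, of 31735 shared gene rows. The libraries came from translating ribosome affinity purification (TRAP) of the rostral pons of adult, untreated mice of the Cbln2-TRAP line NIDA172. In this line Cbln2-EGFP-Rpl10a puts EGFP on the ribosomal protein L10a, and an antibody to EGFP pulls down the tagged ribosomes with the RNA on them. All 4 libraries carry that allele and form 1 group of immunopurified RNA, with no treated mice. RNA of the unpurified tissue was not analysed here, so values are levels within the pulldown and not enrichment. The labels do not say whether replicates came from separate mice or from pools, so SDs and p-values reflect differences among these 4 libraries, which could be technical. The description of replicate 4 carries the replicate label of replicate 3, and its title was followed.

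Axon guidance molecules steer growing axons toward or away from a target, and many stay in use in the adult brain at synapses and in blood vessels. Secreted class 3 semaphorins act through neuropilins bound to plexins, while most membrane-bound semaphorins bind plexins directly. Slits repel axons through Robo receptors, and netrins attract through Dcc or repel through Unc5 receptors. Ephrins are tethered to the membrane and signal at cell contacts to Eph receptor tyrosine kinases, with signals that can also run back into the ephrin-bearing cell.

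The libraries held 12731825 to 21140265 gene counts, and 1 count was worth 0.0473 to 0.0785 CPM, the unit that scales each count to its library's total. Replicates 3 and 4 carry the library numbers 2469 and 2470, and replicates 1 and 2 the numbers 1666 and 1667. The libraries are compared below as these 2 pairs, although the labels name no batch. The row Rn45s, named for the ribosomal RNA precursor, took 24.2% and 9.29% of the gene counts of replicates 3 and 4, against 1.68% and 1.61% in replicates 1 and 2. Cbln2, whose name the line carries, was at 126 and 65.7 CPM in replicates 3 and 4 and at 239 and 110 CPM in replicates 1 and 2. All 10 neuronal markers reached 1 CPM in all 4 libraries, with a summed level of 12415 to 26153 CPM. Astrocyte markers summed to 489 to 2115 CPM, oligodendrocyte markers to 455 to 2525 and endothelial markers to 43.9 to 242. Microglia markers summed to 9.26 to 55.8 CPM and mural and leptomeningeal markers to 113 to 138. Marker transcripts of these cells were thus present beside those of neurons, and each level below is a level in the mixture. In such a mixture, fewer cells of a type and less RNA per cell cannot be told apart.

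Most guidance genes were present. Of the 68 genes, 49 reached 1 CPM in all 4 libraries, which is 72.1%, beside 33.5% of all shared gene rows and 43.9% of the rows with a length in the GENCODE annotation. At 10 CPM or more in all 4 libraries were 33 of 68, or 48.5%, beside 20.3% of all rows. Ligands and receptors did not stand apart in this count, with 24 of 34 ligands and 25 of 34 receptors at 1 CPM throughout. At 100 CPM or more in all 4 libraries were 5 of 68, namely Plxna2, Plxna4, Sema6d, Epha5 and Unc5d. Beside them stood 1331 of all 31735 shared gene rows and 1305 of the 23087 rows with a length. At the other end, 4 genes stayed under 1 CPM in all 4 libraries. Epha2 had 0 counts throughout (3 counts, the limit that a count of 0 allows, are 0.142 to 0.236 CPM), and Efna4 had 1 count in replicate 4 and none elsewhere. Efna2 reached at most 0.864 CPM, and Sema4c averaged 0.382 ± 0.381 CPM. The summed level of the 68 genes was 2303 and 3075 CPM in replicates 3 and 4 and 3134 and 3213 CPM in replicates 1 and 2, or 2931 ± 422 CPM (SD, n = 4). With the Rn45s row out of the totals, replicates 3 and 4 were at 3040 and 3390 CPM. Replicates 1 and 2 were then at 3188 and 3265 CPM, and the mean was 3221 ± 147 CPM.

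**Figure D1:**
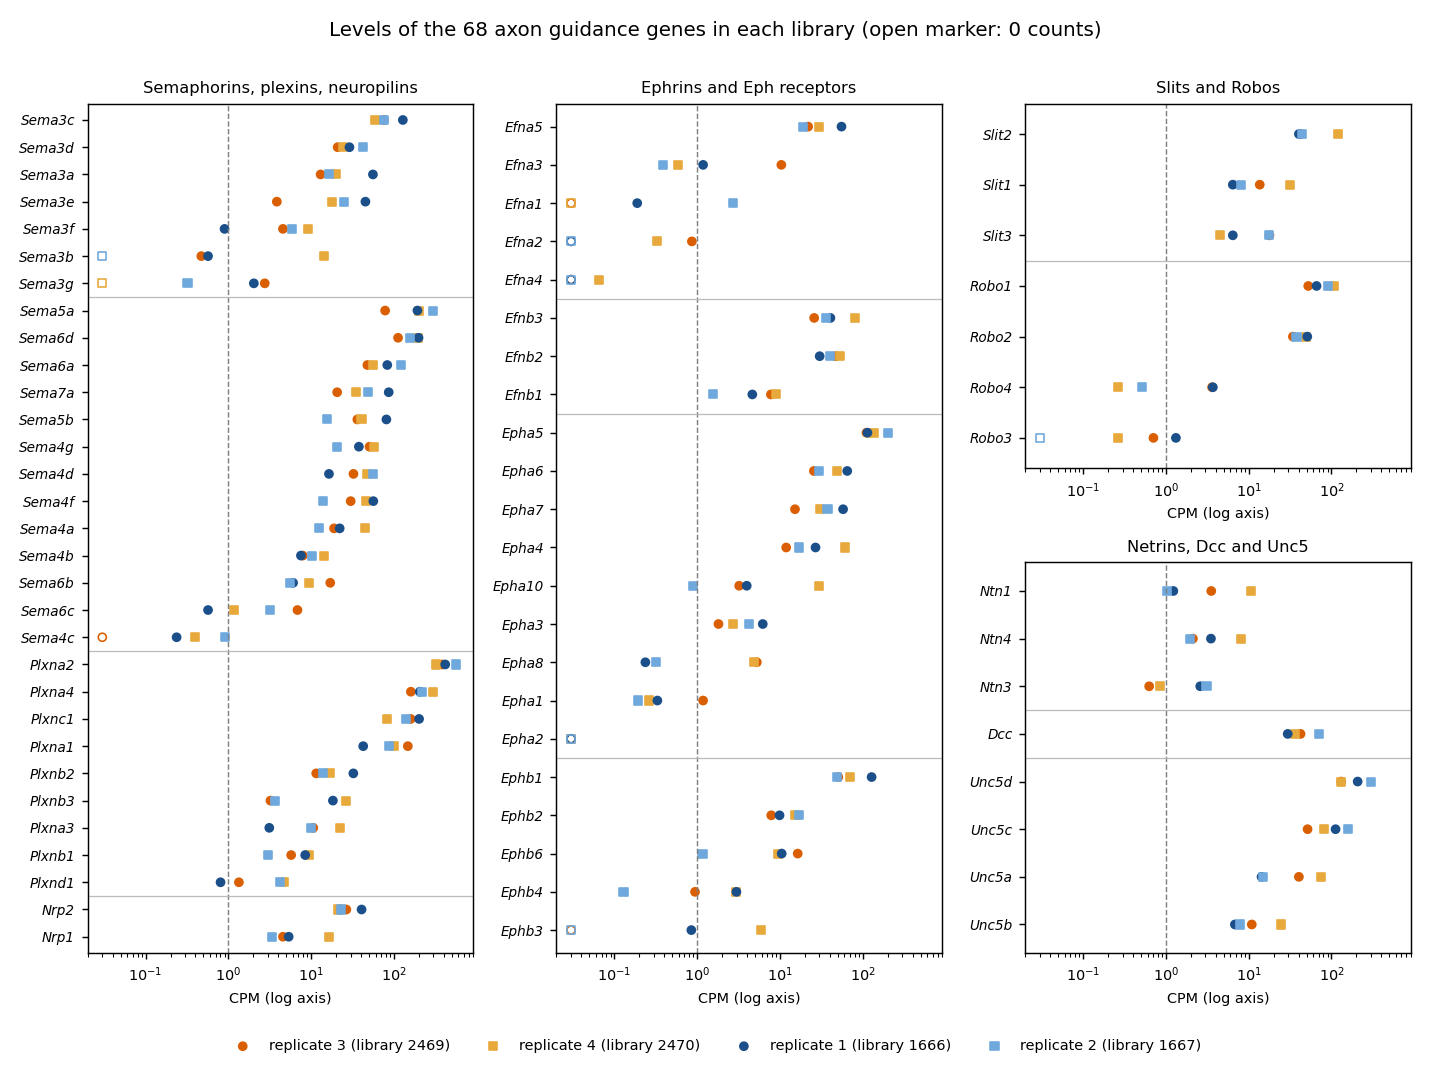
CPM of each of the 68 genes in each library, on a log axis, with classes separated by grey lines. Filled markers are single libraries, open markers at the left edge are 0 counts, and the dashed line is 1 CPM. Of the 68 genes, 49 lie to the right of the dashed line in all 4 libraries.

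To rank genes against each other, CPM have to be set against exon length, here as CPM per kilobase (CPM per kb), while plain CPM serve to follow 1 gene across libraries. On this scale Plxna2 led, at 24.5 ± 5.93 CPM per kb (SD, n = 4), ahead of Unc5d at 20.8 ± 8.76, Plxnc1 at 17.4 ± 5.84 and Sema6d at 15.6 ± 3.79. Plxna4 at 15.6 ± 4.06, Efnb3 at 14.4 ± 7.53, Sema7a at 14.4 ± 8.59, Sema3c at 11.9 ± 4.18 and Ephb1 at 10.7 ± 5.27 CPM per kb followed. These 9 genes, 5 receptors and 4 ligands, were among the 15 highest in every library. The order within them was not fixed. Of the 14 neighbouring pairs among the 15 highest genes, 1 (Plxna2 above Unc5d) kept its order in 4 of 4 libraries, and none differed by a mean over 2 SD. When the length of the longest transcript replaced that of all exons, Plxna2 stayed first, Sema6d came next, and Epha5 stood at rank 5 in place of rank 14.

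**Figure D2:**
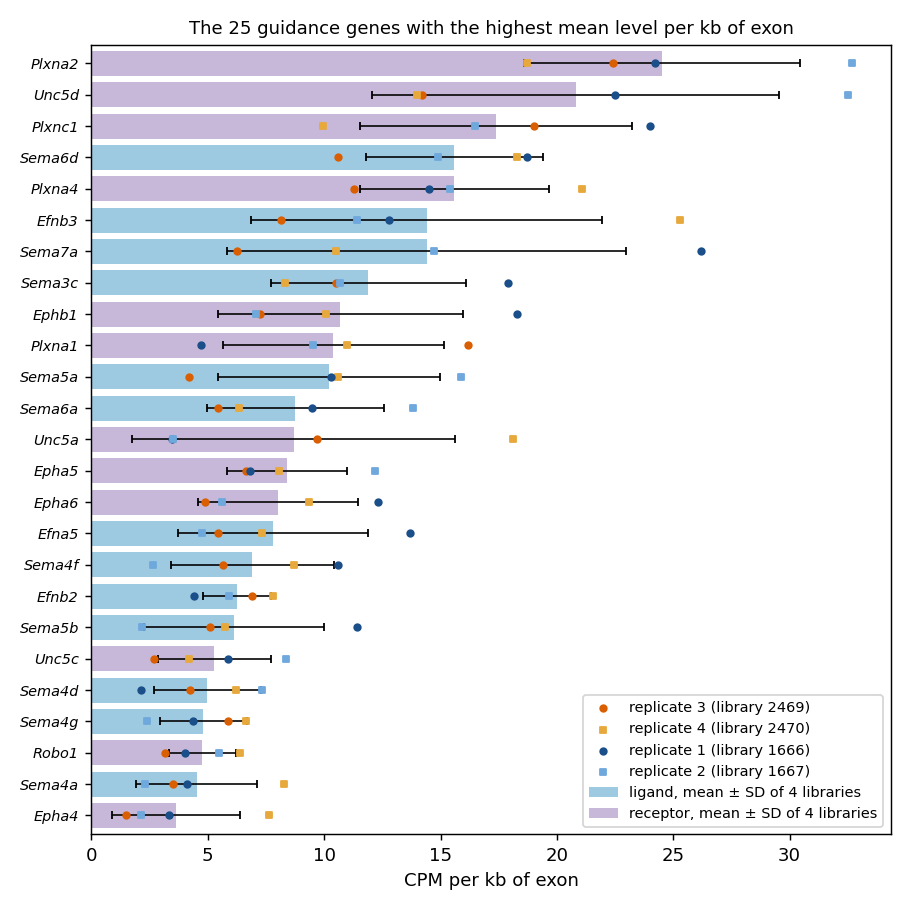
CPM per kb of exon for the 25 genes with the highest means. Bars are means with SD over 4 libraries, coloured by role, and markers are single libraries. The error bars of neighbouring genes overlap down the whole order, and Plxna2 at 24.5 CPM per kb and Unc5d at 20.8 stand at the top.

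Among the secreted class 3 semaphorins, Sema3c dominated. It was at 74.9 and 59.5 CPM in replicates 3 and 4 and at 128 and 76.6 CPM in replicates 1 and 2, and per kb it made up 66.2% and 43.2% of the class in replicates 3 and 4 and 58.0% and 51.6% in replicates 1 and 2. It was the first of the class in all 4 libraries. Sema3d was at 29.2 ± 9.57 CPM and Sema3a, a repellent that acts through Nrp1, at 26.3 ± 19.8 CPM. Sema3a was at 55.7 CPM in replicate 1 and at no more than 20.2 CPM in the other libraries. Sema3e, which binds Plxnd1 without a neuropilin, was at 3.85 and 17.8 CPM in replicates 3 and 4 and at 45.2 and 25.2 CPM in replicates 1 and 2. Its pairs did not overlap, and its SD of log2 CPM, 1.44, was among the 5 largest of the 49 genes present throughout. The remaining members were low. Sema3f, the ligand of Nrp2, was at 5.13 ± 3.43 CPM. Sema3b was at 14.4 CPM in replicate 4 and at 0 to 0.568 CPM in the others, and Sema3g was at 0 to 2.75 CPM. Ependymal and choroid plexus markers also summed highest in replicate 4, at 129 CPM against 3.69 to 7.38 CPM elsewhere. Ttr alone made up most of that sum, at 106 CPM in replicate 4. Of that list 0 of 8 reached 1 CPM throughout, and Folr1, Rarres2 and Aqp1 had 0 counts in all 4 libraries. Their part in the Sema3b value was not tested.

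The membrane-bound semaphorins were more evenly spread. The class held 13 genes, of which 11 reached 1 CPM throughout, and its leading member by CPM per kb, Sema6d, made up 18.3% and 21.2% of it in replicates 3 and 4 and 18.7% and 18.6% in replicates 1 and 2, and came first in 2 of 4 libraries. Sema6d, a transmembrane ligand of Plxna1, was at 112 and 194 CPM in replicates 3 and 4 and at 198 and 158 CPM in replicates 1 and 2. Sema7a, which is held by a lipid anchor and binds Plxnc1, was at 20.6 and 34.5 CPM in replicates 3 and 4 against 86.4 and 48.4 CPM in replicates 1 and 2, without overlap of the pairs. Sema5a, whose extracellular part carries thrombospondin repeats, was at 78.2 and 198 CPM in replicates 3 and 4 and at 192 and 296 CPM in replicates 1 and 2, lowest in replicate 3. By CPM alone Sema5a led the class, at 191 ± 89.2, since its exons are longer. Sema6a, a ligand of Plxna2 and Plxna4, was at 47.7 and 55.5 CPM in replicates 3 and 4 against 83 and 121 CPM in replicates 1 and 2. The Sema4 genes were intermediate. Sema4g was at 41.6 ± 16.2 CPM, Sema4d (the ligand of Plxnb1) at 38.2 ± 17.6, Sema4f at 36.6 ± 18.6 and Sema4a at 24.5 ± 14.1, while Sema4b ran between 7.52 and 14.3 CPM. Sema5b was at 43.3 ± 27.4 CPM, Sema6b at 9.49 ± 5.26 and Sema6c at 2.95 ± 2.83.

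Plexins had the largest sum per kb of the receptor classes, and their sum had the smallest SD relative to its mean of the 13 classes. The 9 genes together were at 73.0 and 71.4 CPM per kb in replicates 3 and 4 and at 75.9 and 78.6 CPM per kb in replicates 1 and 2. Plxna2 was at 384 and 321 CPM in replicates 3 and 4 and at 416 and 561 CPM in replicates 1 and 2. Plxna4 was at 160 and 297 CPM in replicates 3 and 4 and at 205 and 217 CPM in replicates 1 and 2. In CPM, Plxna2 was lower and Plxna4 wider in replicates 3 and 4. The Plxna2 pairs did not overlap, as for 47.5% of all genes tested. That gap depends on totals that include Rn45s, which took 24.2% and 9.29% of the counts of replicates 3 and 4. By edgeR the log2 difference of Plxna2 was -0.45 (SE 0.33, adjusted p = 0.552). Plxna1, another partner of neuropilins, was at 147 and 99.8 CPM in replicates 3 and 4 against 42.5 and 86.4 CPM in replicates 1 and 2, without overlap and in the other direction. Plxnc1, the receptor of Sema7a, was at 145 ± 48.8 CPM and lowest in replicate 4, at 83.2. The B-type plexins and Plxnd1 were low. Plxnb2 was at 18.6 ± 9.37 CPM, Plxnb3 at 12.9 ± 11.4, Plxnb1 at 6.64 ± 2.86 and Plxnd1, a vascular plexin, at 2.77 ± 1.98. Plxnb3, known from oligodendrocytes, was uneven, at 3.22 and 26.4 CPM in replicates 3 and 4 and at 18.3 and 3.66 CPM in replicates 1 and 2. Oligodendrocyte markers, 8 of 10 of them at 1 CPM throughout and Opalin at 0 in some, summed to 455 and 2525 CPM in replicates 3 and 4 and to 1737 and 1867 CPM in replicates 1 and 2. Their part in the Plxnb3 value was not tested. Plxna3 was at 11.5 ± 8.06 CPM.

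Both neuropilins were modest beside the plexins, at 3.11 ± 0.762 CPM per kb together. Nrp2 was at 26.6 and 21.3 CPM in replicates 3 and 4 and at 40.6 and 22.9 CPM in replicates 1 and 2. Nrp1 was at 4.56 and 16.5 CPM in replicates 3 and 4 and at 5.35 and 3.34 CPM in replicates 1 and 2. Nrp2 made up 82.8% to 86.3% of neuropilin CPM per kb in replicates 1 to 3 and 51.6% in replicate 4, where Nrp1 was highest.

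The Robos had the smallest receptor sum per kb of the 4 systems, at 7.76 ± 1.38 CPM per kb. Slit2 was at 42.6 and 121 CPM in replicates 3 and 4 and at 40.4 and 44.5 CPM in replicates 1 and 2, so that 3 libraries lay close together and replicate 4 stood far above them. Slit1 was at 13.6 and 31.5 CPM in replicates 3 and 4 and at 6.43 and 8.10 CPM in replicates 1 and 2. Slit3 was at 17.8 and 4.51 CPM in replicates 3 and 4 and at 6.43 and 17.7 CPM in replicates 1 and 2, lowest in the library where Slit2 was highest. Which slit led could not be fixed, since Slit1 had the highest mean per kb of all exons and Slit2 by CPM and per kb of the longest transcript. The main axonal receptors Robo1 and Robo2 were present throughout. Robo1 was at 52.4 and 106 CPM in replicates 3 and 4 and at 66.0 and 90.8 CPM in replicates 1 and 2. Robo2 was at 34.2 and 48.6 CPM in replicates 3 and 4 and at 51.0 and 37.8 CPM in replicates 1 and 2, the smallest spread of all 49 genes (SD of log2 CPM 0.28). Robo3, which acts in axons that cross the midline, was at 0 to 1.32 CPM and the endothelial receptor gene Robo4 at 0.261 to 3.69 CPM. Endothelial markers summed to 109 and 43.9 CPM in replicates 3 and 4 and to 165 and 242 CPM in replicates 1 and 2. Of these markers 6 of 10 were at 1 CPM throughout, and Cldn5 was at 0 in some libraries. Robo4 was at 3.61 and 0.261 CPM in replicates 3 and 4 and at 3.69 and 0.514 CPM in replicates 1 and 2. The part of endothelial cells in the Robo4 values was not tested.

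Among the lipid-anchored ephrin-A ligands 1 gene, Efna5, was the main one. Efna5 was at 21.9 and 29.5 CPM in replicates 3 and 4 and at 55.4 and 19.2 CPM in replicates 1 and 2, and it made up 53.8% to 95.9% of ephrin-A CPM per kb. Of the other 4 genes none reached 1 CPM in all 4 libraries. Efna3 was at 10.4 CPM in replicate 3 and at 0.386 to 1.18 CPM elsewhere, which lowers the share of Efna5 to 53.8% in that library. Efna1 was at 0 counts in replicates 3 and 4 and at 0.189 and 2.70 CPM in replicates 1 and 2. Among the transmembrane ephrin-B genes, Efnb3 had the highest CPM per kb in all 4 libraries, which did not hold without division by length or per kb of the longest transcript. It was at 25.9 and 80.6 CPM in replicates 3 and 4 and at 40.7 and 36.3 CPM in replicates 1 and 2. Efnb2, at 47.3 and 53.5 CPM in replicates 3 and 4 against 30.2 and 40.6 CPM in replicates 1 and 2, had a smaller spread, and Efnb1 was lower, at 5.71 ± 3.31 CPM. Ephrin-B genes summed to 22.3 ± 8.94 CPM per kb and ephrin-A genes to 9.65 ± 3.48.

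Epha5 and Ephb1 had the highest mean CPM per kb of the EphA and EphB receptors. Epha5 was at 111 and 135 CPM in replicates 3 and 4 and at 114 and 204 CPM in replicates 1 and 2. Epha6 was at 42.4 ± 18.3 CPM, or 8.02 ± 3.45 CPM per kb, close to Epha5 at 8.42 ± 2.58 CPM per kb. Epha7 was at 15.2 and 30.2 CPM in replicates 3 and 4 against 57.9 and 37.5 CPM in replicates 1 and 2. Epha4, which binds ephrins of both types, was at 61.4 CPM in replicate 4 and at 11.9 to 26.9 CPM in the others. Epha10, a receptor without kinase activity, was likewise highest in replicate 4, at 29.8 CPM, with at most 3.97 CPM elsewhere. Epha8 was at 5.26 and 4.90 CPM in replicates 3 and 4 and at 0.237 and 0.321 CPM in replicates 1 and 2, where it rested on 5 counts per library. Epha3 was at 3.73 ± 1.93 CPM and Epha1 at 0.491 ± 0.462.

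Ephb1 was at 50.7 and 70.6 CPM in replicates 3 and 4 and at 128 and 49.4 CPM in replicates 1 and 2, and it made up 58.3% to 80.8% of EphB CPM per kb. Ephb2 was at 12.5 ± 4.35 CPM. Ephb6, which also lacks kinase activity, was at 16.4 and 9.47 CPM in replicates 3 and 4 and at 10.5 and 1.16 CPM in replicates 1 and 2, and had the largest SD of log2 CPM of the 49 genes, 1.48. The low value was that of replicate 2, with 18 counts. Ephb4, known as the venous partner of Efnb2, was at 0.129 to 2.98 CPM and Ephb3 at 0 to 5.88 CPM.

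The netrin receptors chosen here were at higher summed levels than the netrins. Unc5d was at 131 and 129 CPM in replicates 3 and 4 against 207 and 300 CPM in replicates 1 and 2, and Unc5c, whose loss disturbs the cerebellum of the mouse, at 51.4 and 80.3 CPM in replicates 3 and 4 against 112 and 160 CPM in replicates 1 and 2. Unc5a ran the other way, at 40.4 and 75.5 CPM in replicates 3 and 4 against 14.3 and 14.7 CPM in replicates 1 and 2. Unc5b was at 10.9 and 24.4 CPM in replicates 3 and 4 against 6.81 and 7.91 CPM in replicates 1 and 2. In none of these 4 genes did the pairs overlap, with Unc5a and Unc5b above and Unc5c and Unc5d below in replicates 3 and 4. Such a gap is common here, since the pairs did not overlap for 47.5% of all genes tested. Unc5a made up 34.2% and 45.0% of Unc5 CPM per kb in replicates 3 and 4, against 10.5% and 7.69% in replicates 1 and 2, and Unc5d made up 50.1% and 34.9% in replicates 3 and 4, against 68.4% and 71.2% in replicates 1 and 2. The sum was 28.3 and 40.2 CPM per kb in replicates 3 and 4 and 32.9 and 45.7 CPM per kb in replicates 1 and 2. Dcc, the attractive netrin receptor, was at 42.3 and 35.8 CPM in replicates 3 and 4 and at 29.6 and 69.8 CPM in replicates 1 and 2. The netrin genes Ntn1, Ntn4 and Ntn3 averaged 4.13 ± 4.53, 3.91 ± 2.88 and 1.79 ± 1.23 CPM. Ntn1 and Ntn4 were highest in replicate 4, at 10.7 and 8.10 CPM, and Ntn1 was at 1.03 to 3.53 CPM in the others.

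Summed by system, the ratio of receptors to ligands was highest for netrins among the 4 systems compared. The 5 netrin receptors were at 31.5 and 43.0 CPM per kb in replicates 3 and 4 and at 35.1 and 51.0 in replicates 1 and 2. The 3 netrins were at 1.25 and 4.04 CPM per kb in replicates 3 and 4 and at 1.64 and 1.28 in replicates 1 and 2. The log2 ratio of receptors to ligands was 4.45 ± 0.79 (SD, n = 4), or 21.9-fold, and above 0 in 4 of 4 libraries. For the ephrin system it was 0.35 ± 0.27, above 0 in 4 of 4. For slits it was 0.26 ± 0.61 and above 0 in 2 of 4, and without replicate 1 it was -0.02. For semaphorins it was -0.37 ± 0.32 and above 0 in 1 of 4, and 0.20 when CPM were not divided by length. The systems hold unequal numbers of receptors and ligands, these sums were formed after the values were seen, and no test was made on them. They cover only genes chosen by symbol, so other guidance genes such as Neo1 (105 ± 38.3 CPM) were left out. The netrin sum rests on few counts, such as 8 to 55 per library for Ntn3.

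**Figure D3:**
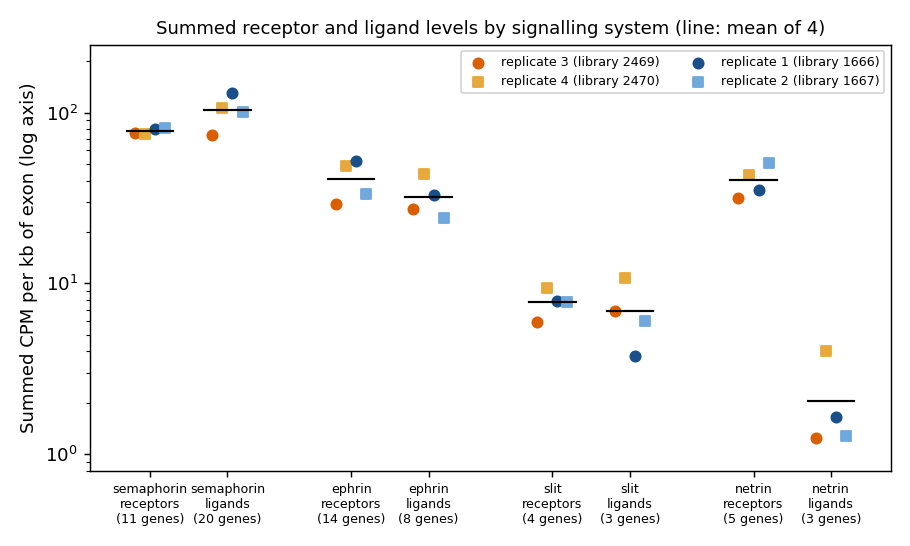
Summed CPM per kb of exon of the receptors and of the ligands of each system, on a log axis, with 1 marker per library and a line at the mean. Receptor and ligand sums overlap for semaphorins, ephrins and slits, while all 4 netrin receptor sums (31.5 to 51.0) lie above all 4 netrin sums (1.25 to 4.04).

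Related genes were also compared within each library for 18 pairs, by the log2 ratio of their CPM per kb with a pseudocount of 0.5. Of these, 11 went one way in 4 of 4 libraries, and 5 of the 11 had a mean over 2 SD. Plxnc1 exceeded Plxnd1 20.2-fold (log2 4.33 ± 0.94), a size that the pseudocount sets because Plxnd1 was at 0.11 to 0.644 CPM per kb. The log2 ratio was 5.32 ± 1.40 with a pseudocount of 0.1 and 3.7 ± 0.76 with a pseudocount of 1. Ephb1 exceeded Ephb2 7.10-fold (log2 2.83 ± 0.77). Robo1 exceeded Robo2 1.71-fold (log2 0.77 ± 0.38), though without replicate 2 or replicate 4 its mean was under 2 SD, at 0.65 ± 0.35 and 0.68 ± 0.41. Robo3 was below Robo2 (log2 -2.37 ± 0.24, with Robo3 under the pseudocount in every library, which sets the size), and Plxnb1 was below Plxnb2 (log2 -1.24 ± 0.45). Other pairs went one way in all 4 libraries with a wider spread. They were Efnb3 over Efnb2 (log2 1.05 ± 0.63), Epha5 over Epha4 (1.28 ± 0.98), Ntn4 over Ntn1 (0.48 ± 0.45), Nrp1 over Nrp2 (-1.25 ± 0.81), Sema6a over Sema6d (-0.86 ± 0.56) and Efna3 over Efna5 (-2.64 ± 1.59). The length used decided some of them. Efnb3 over Efnb2 was 0.00 ± 0.65 and Ntn4 over Ntn1 0.22 ± 0.87 with no division by length. With the longest transcript Efnb3 over Efnb2 was 0.57 ± 0.63, Ntn4 over Ntn1 0.46 ± 0.47 and Nrp1 over Nrp2 -1.02, and in none of these 5 cases did all 4 libraries go one way. Each of the 11 pairs had the smallest p that 4 libraries allow in an exact permutation test of signs (two-sided), which was 0.205 after Benjamini-Hochberg adjustment over the 18 pairs, so no pair could pass 0.05.

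The other 7 pairs changed direction between libraries. Unc5a over Unc5c was at 1.68 and 1.99 in replicates 3 and 4 against -0.69 and -1.14 in replicates 1 and 2 on the log2 scale. Its mean of 0.46 ± 1.60 turned to -0.40 with the longest transcript as the length and to -1.69 with no length. Slit1 over Slit2 averaged -0.04 ± 0.35, Slit3 over Slit2 -0.31 ± 1.28, Plxna2 over Plxna4 0.64 ± 0.56, Plxna1 over Plxna4 -0.65 ± 0.85, Unc5c over Dcc 0.54 ± 0.59 and Sema3a over Sema3f 0.66 ± 1.40. With the longest transcript as the length, Slit1 over Slit2 was -1.16 ± 0.34, Slit3 over Slit2 -1.31 ± 1.37 and Plxna2 over Plxna4 1.14 ± 0.56. Unc5c over Dcc was then 1.15 ± 0.62 and Sema3a over Sema3f 1.27 ± 1.62. Each of these went one way in all 4 libraries, while Unc5a over Unc5c and Plxna1 over Plxna4 did not. With no division by length, all 7 pairs went one way in all 4 libraries, so the length used decided this too.

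**Figure D4:**
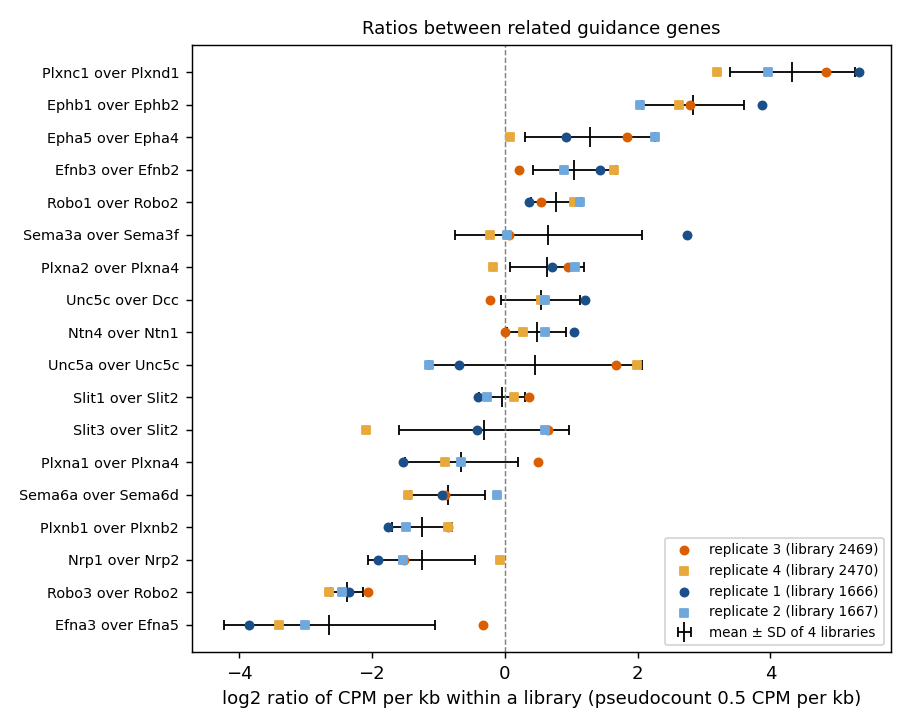
Log2 ratio of CPM per kb between related genes within each library, with 1 marker per library and the mean with SD over 4 libraries. The dashed line is a ratio of 1, and for Unc5a over Unc5c replicates 3 and 4 lie to its right (1.68 and 1.99) and replicates 1 and 2 to its left (-0.69 and -1.14).

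Some members lie in chromosomal neighbourhoods (GRCm38 coordinates, starts at most 5 Mb from the next). In some of these the members were present or low together, and others were mixed. Of all members, 72.1% reached 1 CPM throughout, so members present together are common. Sema3d, Sema3a, Sema3e and Sema3c lie on chromosome 5 between 12383385 and 17730268, and all 4 reached 1 CPM throughout. Sema3b and Sema3f, which did not, lie with Plxnb1, which did, on chromosome 9 between 107597674 and 109119917. Robo1 and Robo2, both present, lie on chromosome 16 between 72308306 and 74411825, while Robo4 and Robo3, neither at 1 CPM throughout, lie within 31.4 kb on chromosome 9 (37401897 to 37433246). Efna1, Efna3 and Efna4, all low, lie on chromosome 3 beside Sema4a, which was present, in 902 kb (88435959 to 89338028). Ephb2, Epha8 and Epha2 on chromosome 4 (136647539 to 141329384) were mixed, with 1 of 3 at 1 CPM throughout. Of Ephb6 and Epha1, within 768 kb on chromosome 6, only Ephb6 reached 1 CPM throughout. These neighbourhoods are a description chosen after the levels were known, with no test.

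Positions of the leading genes are those of GENCODE M21. Plxna2 (ENSMUSG00000026640) lies on chromosome 1, 194618218 to 194816869, plus strand, and Unc5d on chromosome 8, 28646717 to 29219636, minus strand. Plxnc1 lies on chromosome 10, 94790866 to 94944835, minus strand, and Sema6d on chromosome 2, 124089969 to 124667770, plus strand. Unc5a lies on chromosome 13, 54949411 to 55006018, plus strand. Exon bases shared with another annotated gene were found in 17 of the 68 genes and exceeded 10% in 3, Efna3 (14.1%), Plxna1 (10.7%) and Efna4 (10.5%), whose counts are therefore less certain.

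No guidance gene passed the test between the library pairs. Of the 61 that could be tested, 0 differed between replicates 3 and 4 and replicates 1 and 2 at an adjusted p under 0.05 (edgeR quasi-likelihood test, Benjamini-Hochberg over 13905 genes), beside 1.27% of all genes tested. At an unadjusted p under 0.05 there were 7 of 61, or 11.5%, beside 16.8% of all genes. DESeq2 called 1 of 61, Unc5a, beside 9.93% of all genes, and edgeR without a filter on low counts also called Unc5a alone, beside 4.77%. The median log2 difference was 0.12 over the 61 genes and -0.03 over all genes tested. Without replicate 4 it was -0.23 over the 64 guidance genes then tested, beside -0.16 over all genes then tested. The pairs did not overlap in CPM for 22 of 61 genes, or 36.1%, beside 47.5% of all genes tested, with 11 above and 11 below in replicates 3 and 4. These shares lie at or under those of all genes, and a p that misses the threshold does not show that the levels were alike.

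The 7 genes at an unadjusted p under 0.05 are given with their adjusted values from edgeR. Unc5a had a log2 difference of 1.98 (SE 0.59, adjusted p = 0.110), with an adjusted p of 0.00888 by DESeq2, 0.0489 without the filter and up to 0.52 (without replicate 4) over all alternatives run with edgeR. Unc5d had -0.95 (SE 0.36, adjusted p = 0.196 by edgeR) and Unc5c -1.06 (SE 0.41, adjusted p = 0.208 by edgeR). Sema7a had -1.29 (SE 0.54), Sema6a -0.98 (SE 0.44) and Sema3e -1.75 (SE 0.80), with edgeR adjusted p of 0.239, 0.277 and 0.297. Epha8 had 4.17 (SE 1.82, edgeR adjusted p = 0.268), from 5 counts in each of replicates 1 and 2. Some of these genes are known from the cerebellum, which borders the rostral pons: Unc5c and Sema6a act in granule cell migration in the mouse. Cerebellar granule cell markers summed to 158 and 260 CPM in replicates 3 and 4 against 560 and 1311 CPM in replicates 1 and 2. Of the 8 markers 7 were at 1 CPM throughout, all 8 had a log2 difference below 0, with a median of -2.09, and 2 passed the test (Neurod1 and Cbln3). Purkinje cell and Bergmann glia markers summed to 771 and 749 CPM in replicates 3 and 4 against 1584 and 2627 CPM in replicates 1 and 2. Of these 8 markers 6 had a log2 difference below 0, with Itpr1 and Car8 carrying the sum and passing the test, while Calb1 (0.57) and Pcp2 (1.85) were above 0. Neuronal markers summed to 12415 and 13301 CPM in replicates 3 and 4 against 26153 and 23436 CPM in replicates 1 and 2. Snap25 alone made up most of that sum, at 8131 and 6936 CPM in replicates 3 and 4 against 18577 and 15908 CPM in replicates 1 and 2. The median log2 difference of the 10 neuronal markers was -0.19, with 7 below 0 and with Eno2 (0.89), Uchl1 (1.49) and Map2 (0.28) above 0. Nefm alone of the neuronal markers passed the test, with a log2 difference of -2.56 (SE 0.45, edgeR adjusted p = 0.0238). The part of these cells in the values of Unc5c, Unc5d and Sema6a was not tested.

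**Figure D5:**
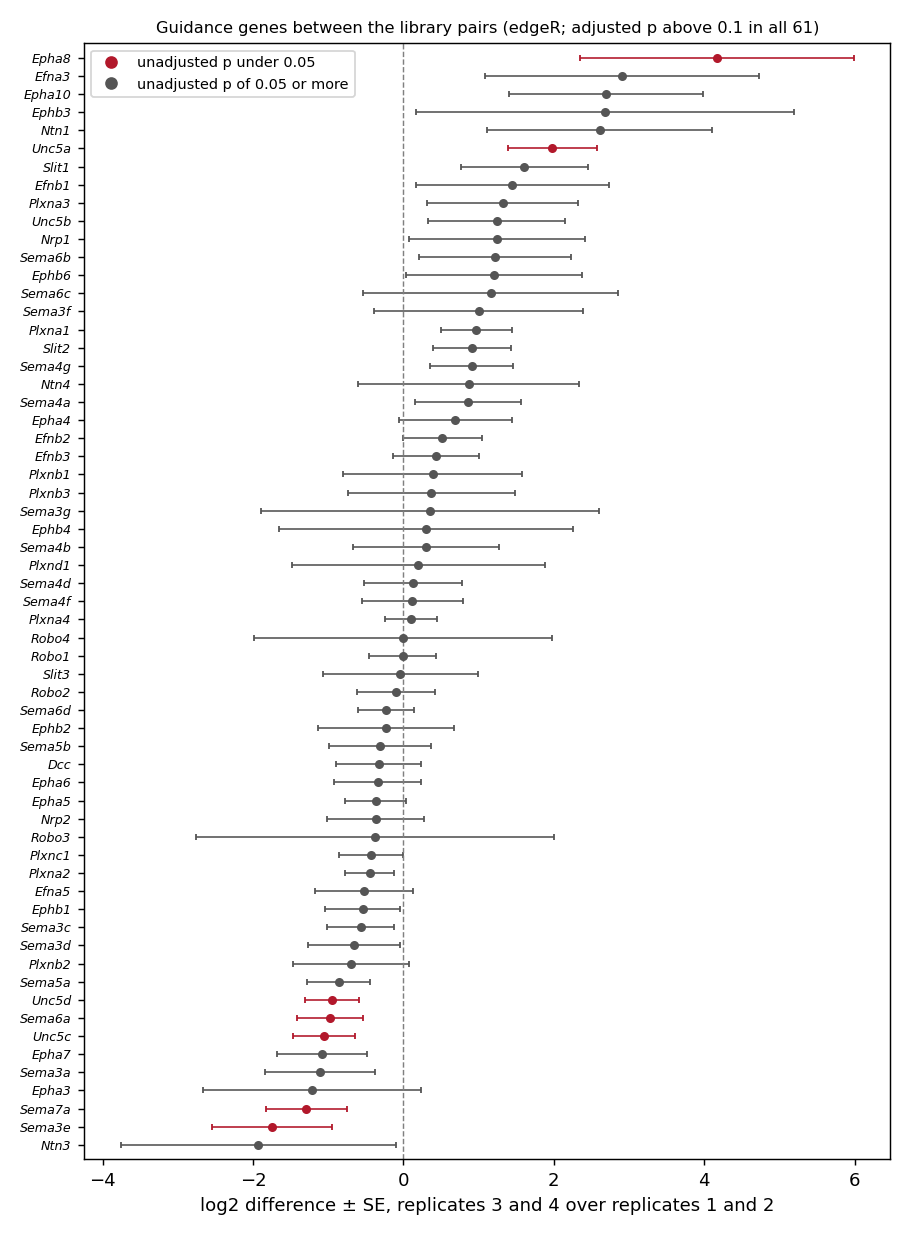
Log2 difference with SE (edgeR) between replicates 3 and 4 and replicates 1 and 2 for the 61 tested genes, sorted by size. Red marks the 7 genes with an unadjusted p under 0.05, Epha8, Unc5a, Unc5d, Sema6a, Unc5c, Sema7a and Sema3e, and none passed after adjustment.

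The spread of the guidance genes between libraries was set beside that of other genes. The SD of log2 CPM had a median of 0.69 over the 49 genes present throughout, beside 0.67 over the 10632 genes at 1 CPM in all 4 libraries. Among genes that also averaged 20 CPM or more it was 0.65 over 33 guidance genes, beside 0.58 over 6746 genes. The steadiest were Robo2 (0.28), Plxna2 (0.34), Efnb2 (0.35), Plxna4 (0.37) and Sema6d (0.38). The least steady were Ephb6 (1.48), Plxnb3 (1.47), Sema3e (1.44), Ntn1 (1.33) and Unc5a (1.15). Replicate 3 held the lowest value for 20 of the 49 genes, or 40.8%, beside 30.5% of all genes at that level. Replicate 4 held the highest for 19, or 38.8%, beside 29.0%. With the Rn45s row taken out of the totals, replicate 3 was lowest for 9 of 49 and replicate 2 for 19, while replicate 4 was still highest for 18.

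Genes that act with these receptors were present too. Of 35 co-receptors and other guidance genes, 30 reached 1 CPM throughout. The 5 with the most counts were the adhesion molecules L1cam at 311 ± 107 CPM, Chl1 at 307 ± 99.9 and Nrcam at 232 ± 62.1, the receptor phosphatase gene Ptprd at 254 ± 105 and Lrrc4c, a netrin-G ligand, at 222 ± 121. Per kb the order differed, with Lrrc4c at 48.0 CPM per kb, L1cam at 42.4, Chl1 at 25, Lingo1 at 19.9, Nrcam at 17.3 and Ptprd at 11.1. Of 33 tested with edgeR, 1 rose, beside 0.712% of all genes that were higher in replicates 3 and 4, and 0 fell, beside 0.554% that were lower. DESeq2 called 6 of the list, 5 as higher and 1, Lrrc4c, as lower in replicates 3 and 4, beside 9.93% of all genes. Among the 5 was Rgma, at 31.6 and 60.5 CPM in replicates 3 and 4 against 5.87 and 1.99 CPM in replicates 1 and 2. Its log2 difference was 3.54 (SE 0.80, edgeR adjusted p = 0.0529). Lrrc4c was at 132 and 106 CPM in replicates 3 and 4 against 300 and 350 CPM in replicates 1 and 2 (log2 -1.42, SE 0.35, edgeR adjusted p = 0.0675), and was also called by edgeR without a filter and without replicate 1 or 3. The 1 gene that passed was Lingo1, a partner of the Nogo receptor, at 145 and 156 CPM in replicates 3 and 4 against 48.6 and 26.7 CPM in replicates 1 and 2 (log2 2.02, SE 0.44, edgeR adjusted p = 0.0458), and without replicate 2 it did not pass (adjusted p = 0.0588 by edgeR). At an unadjusted p under 0.05 were 7 of 33, or 21.2%, beside 16.8% of all genes. The median log2 difference of the 33 genes was 0.01.

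Of 56 intracellular signalling genes, 52 reached 1 CPM throughout. The 5 with the most counts were the small GTPase Rac1 at 1094 ± 403 CPM, the kinases Gsk3b at 888 ± 166 and Pak1 at 877 ± 186, the semaphorin mediator Dpysl2 at 752 ± 401, and Srgap3, which acts below Robo receptors, at 749 ± 235. Per kb Rac1 was at 243 CPM per kb, Pak1 at 222, Dpysl2 at 166, the actin regulator Cfl1 at 153 and the small GTPase Cdc42 at 100, ahead of Gsk3b at 90.3 and Srgap3 at 76.1. By edgeR 0 of 55 tested passed, beside 1.27% of all genes. At an unadjusted p under 0.05 were 13 of 55, or 23.6%, beside 16.8%, and DESeq2 called 6, beside 9.93%. Their median log2 difference was -0.12. Dpysl2 was at 1028 and 1149 CPM in replicates 3 and 4 against 312 and 518 CPM in replicates 1 and 2, with a log2 difference of 1.40 (SE 0.33, edgeR adjusted p = 0.0621) that passed with DESeq2, without a filter, and without replicate 2, 3 or 4. These genes serve many pathways besides guidance.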

How the data were processed

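The authors deposited 1 table of raw read counts per gene symbol for each library, made with STAR 2.0.0e and HTSeq on mm10 per the submitters' processing notes. Which annotation, strand setting and counting options were used is not given in the sources used here. Reads of overlapping and antisense genes cannot be told apart. HTSeq summary rows stayed out of totals: reads outside features were 24.0% to 30.1%, multiply aligned reads 28.6% to 37.2% and ambiguous reads 1.25% to 2.07%. The row unknown held no counts. CPM used the total of all gene rows of a library. Tests used the 31735 rows shared by all 4 tables, and rows outside them held 0.549% to 0.732% of counts. Exon lengths and positions came from GENCODE M21 (GRCm38, the assembly of mm10), for 23087 shared rows.

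The library pairs were compared with edgeR 4.0.16 (TMM scaling, low counts removed by filterByExpr, then the quasi-likelihood F test at a threshold of 0.05). The fit was also run on simulated counts with the same scatter for all genes. That setting is simpler than these libraries, so it does not measure the error rate here. The SE is the log2 difference divided by the square root of F. SD of log2 CPM used a pseudocount of 0.5 CPM. DESeq2 1.42.0, other filters, totals, lengths and pseudocounts, and leaving out each replicate, were the alternatives. Genes named with values were the 3 highest per class, those in the pairs, the extremes of spread, those at 0, those with 1 library far from the rest and, of each pathway list, the 5 highest by CPM and those past the test. Other genes with values, including those at an unadjusted p under 0.05, were named after their values were seen. The members and gene lists were chosen with earlier results of these data known. Counting floors (3 counts) cover counting error only.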

Additional observations from a re-analysis of the deposited data

Results flagged for a closer look

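Within each gene the 4 libraries were checked for 1 value far from the rest (Dixon's ratio on log2(CPM + 0.5) above its 95% critical value). Of 67 genes with any range, 2 were picked out, where chance alone gives about 1 in 20, or 3.35. Slit2 stood apart in replicate 4, at 121 CPM, while the nearest library had 44.5 CPM and the lowest 40.4, a gap of 0.912 of the range. Efna4 was picked out in replicate 4 at 0.0653 CPM, which is 1 count against 0 in the other 3 libraries.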

How the results depend on the processing

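The 49 genes at 1 CPM throughout became 49 to 52 without single replicates, 54 at a limit of 0.5 CPM, 44 at 2 CPM and 49 without Rn45s in the totals, and the summed level of 2931 CPM stayed between 2838 (without replicate 2) and 3221 (without Rn45s in the totals). Gene pairs with a mean over 2 SD, 5 of 18, were 5 to 9 without single replicates, 8 with no division by length and 9 with the longest transcript. Direction turned for Slit1 over Slit2 without replicate 1 or 2 (0.08 and 0.04, range from -0.17 over single replicates left out), Slit3 over Slit2 without replicate 4 (-0.63 to 0.28), Sema3a over Sema3f without replicate 1 (-0.04 to 0.95), and Unc5a over Unc5c without replicate 4 (-0.05 to 0.99), with no length (-1.69) and with the longest transcript (-0.40). The receptor over ligand sums, an addition after the data were seen, reversed for semaphorins with no length (0.20) and ranged from -0.02 (without replicate 1) to 0.41 for slits without single replicates. For ephrins they moved to 1.48 with no length and 0.87 with the longest transcript, and for netrins to 5.44 with no length. The 176 genes that differed between the pairs became 1398 by DESeq2, 875 without a filter and 389 to 699 without single replicates. Guidance genes called were 1 by DESeq2, 1 without a filter and 0 under every other alternative run. Co-receptor calls were 6 by DESeq2, 5 without a filter and 1 under each other alternative that kept every library. Intracellular signalling calls were 6, 5 and 0 in the same order of settings. The shares of all genes called were 9.93% by DESeq2 and 4.77% without a filter. The cause of these moves was not tested. Without a replicate, 1 pair holds a single library, which is assumed to vary like the others. No paired analysis was possible because there is 1 group. A level under 3 counts is not distinguishable from 0, which limits Epha2, Efna4, Efna2, Efna1, Ephb3, Ephb4, Robo3, Sema3b, Sema3g and Sema4c in 1 or more libraries.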
